A study of Mus musculus with 2 samples.

Results

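The genes described here are 8 genes of the smooth muscle contractile apparatus (Acta2, Tagln, Cnn1, Myh11, Myl9, Tpm1, Tpm2 and Cald1) and the 2 PDGF receptor genes (Pdgfra and Pdgfrb). They were taken by symbol, as all probesets of the array that the probe annotation names with 1 of these symbols alone, which gave 182 of the 270105 probesets with 1 symbol and 10 of 21947 named genes. The samples are 2 Affymetrix arrays of mouse cells derived from the Bry-GFP embryonic stem cell line, in which GFP reports on Brachyury, a gene of early mesoderm. FLK1-positive mesoderm was taken from embryoid bodies on day 3 and cultured with 300 nM of an LSD1 inhibitor, known by its code name compound B, or with the solvent DMSO alone. The CD41 compartment of each culture was sorted on culture day 2. LSD1 is a histone demethylase recruited by the Gfi1 proteins, transcriptional repressors that act in blood formation. With 1 array per condition, all from the same line, there is no replicate, no test between conditions was possible, and every SD below is the spread over the probesets of a gene within the 2 arrays.

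Smooth muscle cells contract when myosin pulls on filaments of smooth muscle actin. Tropomyosin, caldesmon and calponin lie on those filaments, and the regulatory light chain switches the myosin on when it is phosphorylated. Many of these genes are activated by the serum response factor SRF with its cofactors of the myocardin family, through a promoter element called the CArG box. The PDGF receptors are tyrosine kinases, and PDGF-B from endothelium draws in pericytes and smooth muscle cells through PDGFRβ, while PDGFRα marks early mesoderm and mesenchyme. Smooth muscle genes are also used outside muscle: tropomyosins, caldesmon and the light chain serve the cytoskeleton of many cells, platelets and endothelium included.

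None of the 10 genes passed a 2-fold size rule, which 2.28% of 15087 measured genes did (1.72% higher and 0.563% lower in the inhibitor array). Pdgfrb came nearest, 1.77-fold lower in the inhibitor array, with 23 of its 25 probesets lower. Pdgfra was 1.48-fold lower, a value that rests on dim probesets, as given below. The contractile genes split: Acta2, Tagln and Tpm1 were lower, Cnn1 and Myl9 were higher, and Myh11, Tpm2 and Cald1 had log2 differences of 0.03 to 0.07. The rule asked for a log2 difference of at least 1 with at least 75% of a gene's bright probesets in the same direction, where a bright probeset reached the median of the whole table, 3.17, in at least 1 array. A gene's level is the median of its bright probesets in an array, and its difference is the median of the probeset differences, inhibitor minus DMSO, which can depart from the gap between the 2 levels. In RNA from a whole sorted population, fewer cells that express a gene and less of its RNA per cell cannot be told apart.

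**Figure D1:**
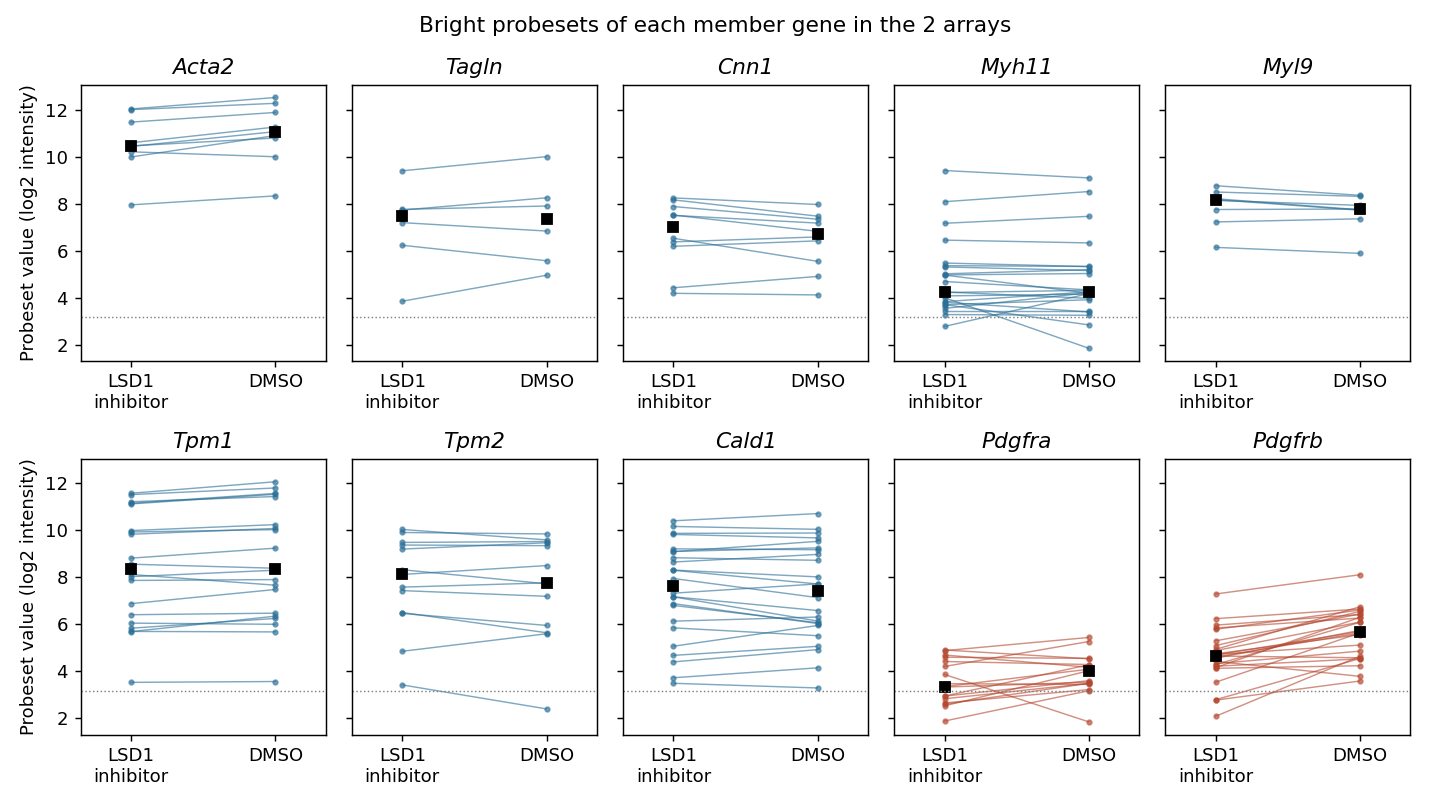
Value of every bright probeset of the 10 genes in log2 intensity (vertical axis), in the LSD1 inhibitor array and the DMSO array (horizontal axis), with each probeset joined by a line, the gene level as a black square and the table's median of 3.17 as a dotted line. Most lines of Pdgfrb and Acta2 are lower at the inhibitor end, while those of Myl9 and Cnn1 are mostly higher there.

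The median difference of the 10 genes was -0.11 in log2, against 0.06 over all measured genes, with 5 genes above 0 and 5 below. Of all measured genes 41.0% lay at or below 0, the base for such counts here and for the lists below. The median of the 10 genes turned to 0.03 with at least 8 bright probesets required, and to 0.04 both with a brightness limit at the 75th percentile and with the gap between the median levels. Among the 8 contractile genes the median was 0.05 and the range ran from -0.41 to 0.30, and the 2 receptors lay at -0.82 and -0.57. The central 90% of all measured genes lay between -0.50 and 0.68, a range that held the 8 contractile genes and neither receptor. Pdgfra came inside that range at -0.39 with probesets kept by the mean of both values, at -0.32 with all probesets, at -0.37 as a mean over probesets and at -0.26 in its brighter probesets alone. At least 75% of the probesets went one way in 4 of the 10 genes, 3 of them downward, namely Acta2, Tpm1 and Pdgfrb, and 1 upward, Myl9. The same held for 33.8% of all measured genes, 10.8% downward and 23.0% upward.

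Acta2 encodes the alpha actin of smooth muscle, the thin filament protein and the usual marker of the lineage. Its 9 probesets read 12.03, 12.00, 11.47, 10.59, 10.43, 9.98, 10.46, 10.20 and 7.95 in the inhibitor array, against 12.52, 12.27, 11.88, 11.26, 11.06, 10.90, 10.79, 9.99 and 8.33 in the DMSO array, in the same order. All but 1 of them were lower with the inhibitor. The gene levels were 10.46 in the inhibitor array and 11.06 in the DMSO array, and the difference was -0.41 (SD 0.31 over 9 probesets), which is 1.33-fold lower. It stayed between -0.61 and -0.38 over 16 other ways of processing the values. The actins are close relatives, so probes for Acta2 may also bind their transcripts. The smooth muscle gamma actin gene Actg2 differed by -0.18 (and by up to 0.14 in the other direction among those settings), and the striated muscle actin genes by -0.03 for Acta1 and 0.10 for Actc1.

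The spread of gene differences narrowed with level on these arrays, so the genes were also set beside others of similar level, in bands chosen after the values were seen. Among the 239 genes with a mean level of 10 or more, the central 90% lay between -0.12 and 0.29, and 4 genes had a lower difference than Acta2. These were the embryonic globin genes Hba-x and Hbb-y, Pmp22, which encodes a membrane protein of peripheral myelin, and the glucose transporter gene Slc2a1. Tpm1 and Tagln were also below the central 90% of their bands, with 44 of 1301 genes below Tpm1 at levels of 8 to 10 and 153 of 4232 genes below Tagln at levels of 6 to 8. Pdgfrb was below it too, with 98 of 6814 genes lower at levels of 4 to 6, whereas Pdgfra was inside its band, which ran from -0.69 to 0.73 below a level of 4. The other 5 genes were inside their bands as well. No test stands behind these positions.

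**Figure D2:**
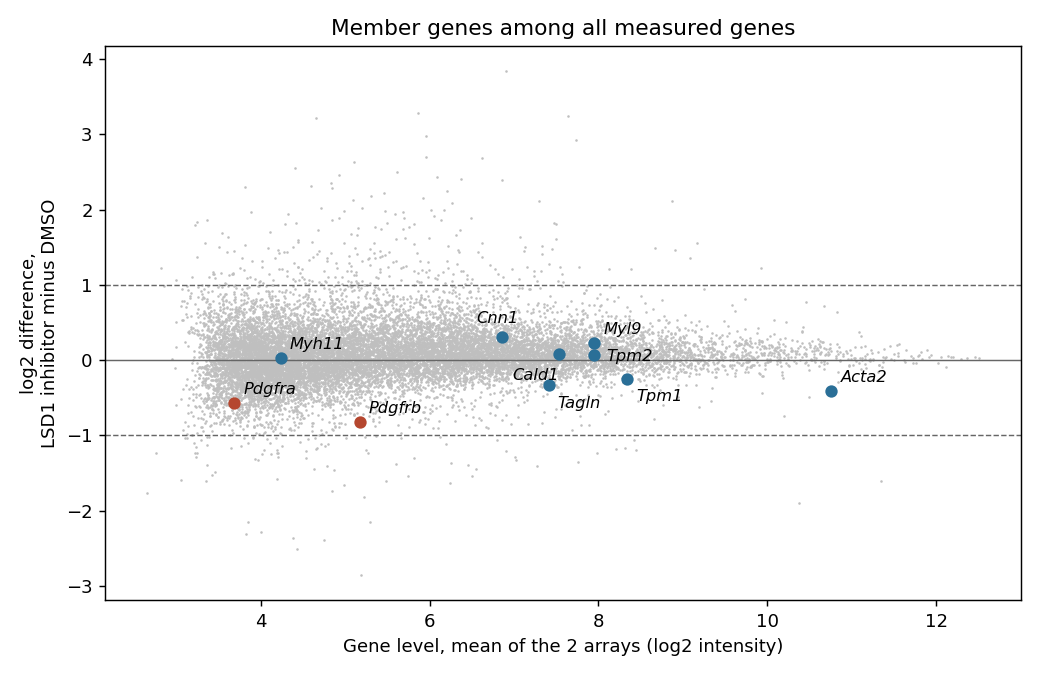
Log2 difference of every measured gene, inhibitor minus DMSO (vertical axis), against its mean level over the 2 arrays in log2 intensity (horizontal axis), with the contractile genes in blue, the PDGF receptor genes in red and the 2-fold limits dashed. The grey cloud of all genes is narrower to the right, where Acta2 lies at -0.41 near its lower edge.

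Tropomyosin 1, the product of Tpm1, winds along the actin filament and controls access of myosin to it. Its gene levels were 8.34 in the inhibitor array and 8.35 in the DMSO array, yet 16 of its 20 probesets were lower with the inhibitor and the difference was -0.25 (SD 0.27). Of the 10 brighter probesets, 9 were lower, with a median of -0.27, and of the 10 dimmer ones 7 were lower, with a median of -0.05. The gene makes many isoforms by alternative exons, and the probesets of each isoform were not separated here. Tpm2, which encodes the beta tropomyosin, differed by 0.06 (levels 8.12 in the inhibitor array and 7.77 in the DMSO array, SD 0.51) with 8 of 13 probesets higher, and turned to -0.01 in its brighter probesets alone.

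Tagln encodes transgelin, an actin-binding protein and an early marker of smooth muscle. Its 6 probesets read 9.40, 7.72, 7.75, 7.19, 6.23 and 3.84 in the inhibitor array, against 9.999, 8.25, 7.90, 6.83, 5.57 and 4.95 in the DMSO array. The 3 brightest were lower with the inhibitor, and the rest were mixed, with 2 higher and 1 lower. The difference was -0.33 (SD 0.65), while the median levels went the other way, 7.46 in the inhibitor array and 7.36 in the DMSO array.

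Cnn1, which encodes calponin 1, a thin filament protein of differentiated smooth muscle, was higher with the inhibitor. Its levels were 7.01 in the inhibitor array and 6.70 in the DMSO array, and its difference was 0.30 (SD 0.48), or 1.24-fold, with 7 of 10 probesets higher. The 5 brighter probesets were all higher, with a median of 0.54, and the 5 dimmer ones had a median of -0.21. Over the other settings the difference ran from 0.07 to 0.54.

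Myl9 encodes the regulatory light chain of smooth muscle myosin, which is also abundant in platelets. Its 8 probesets read 8.76, 8.49, 8.13, 7.75, 8.21, 8.17, 7.22 and 6.14 in the inhibitor array, against 8.35, 8.31, 7.92, 7.77, 7.74, 7.72, 7.35 and 5.88 in the DMSO array. All but 2 were higher with the inhibitor, and those 2 differed by -0.02 and -0.13. The gene difference was 0.23 (SD 0.22), or 1.17-fold, within a range of 0.15 to 0.43 over the other settings. Its non-muscle relatives Myl12a and Myl12b differed by 0.15 and 0.35.

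Myh11, the heavy chain of smooth muscle myosin and the most specific marker of mature smooth muscle among the 8, had probesets of very unequal brightness. Of its 36 probesets 23 were bright. These ran from 2.77 to 9.41 in the inhibitor array, against 1.84 to 9.09 in the DMSO array, with a median of 4.24 in each. The 3 brightest read 9.41, 8.08 and 7.16 in the inhibitor array, against 9.09, 8.51 and 7.46 in the DMSO array, so 1 of them was higher and 2 were lower with the inhibitor. The difference was 0.03 (SD 0.65), with 12 probesets higher and 10 lower, and it turned below 0 in 4 of 16 other settings, to -0.09 at the lowest. Cald1, which encodes the actin- and myosin-binding caldesmon, had levels of 7.64 in the inhibitor array and 7.43 in the DMSO array and a difference of 0.07 (SD 0.50), with 13 of 24 probesets higher, and turned to -0.10 in the odd-ranked probesets alone. Its probesets ran from -0.88 to 1.03, so the median near 0 covers probesets on both sides of it.

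**Figure D3:**
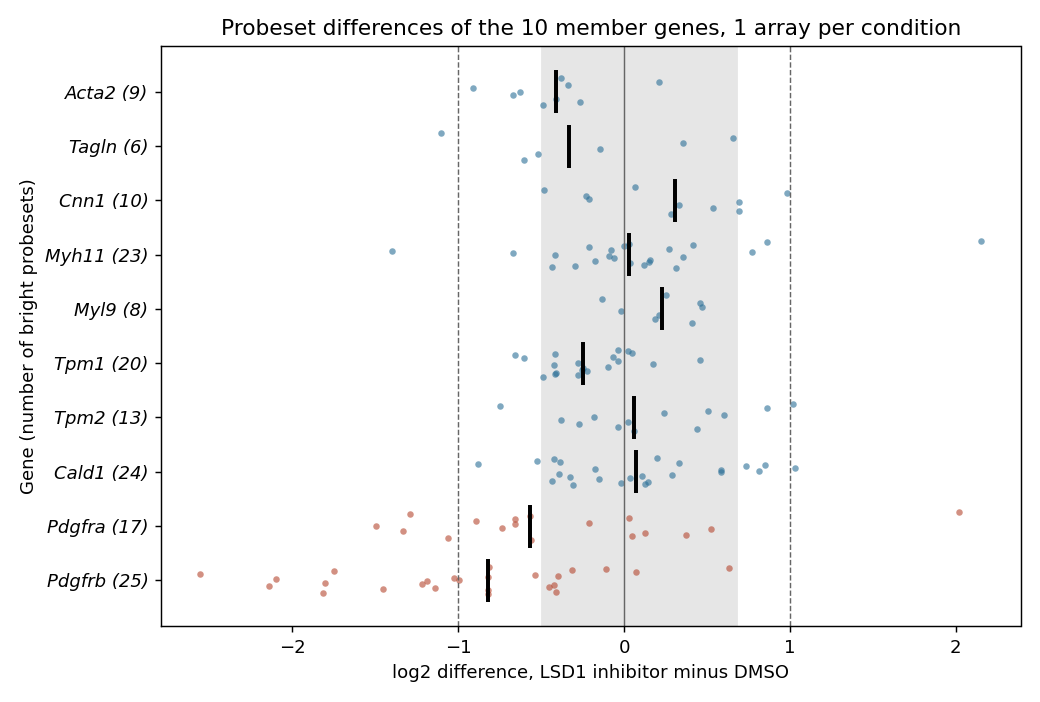
Log2 difference of each bright probeset, inhibitor minus DMSO (horizontal axis), for each gene with its number of bright probesets (vertical axis), with the gene's median as a black bar, the central 90% of all measured genes in grey and the 2-fold limits dashed. The median bars of Pdgfrb at -0.82 and Pdgfra at -0.57 lie left of the grey range, where that of Pdgfra rests on probesets kept by the higher of their 2 values (-0.39 when kept by the mean), and the other 8 lie inside it.

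Pdgfrb encodes the beta receptor for PDGF, found on pericytes, smooth muscle cells and mesenchyme. Its 25 bright probesets ran from 2.09 to 7.29 with a median of 4.65 in the inhibitor array, against 3.59 to 8.11 with a median of 5.69 in the DMSO array. The ranges overlap because probesets of a gene differ in brightness, but probeset by probeset 23 were lower with the inhibitor, and 11 of them were at least 2-fold lower. The difference was -0.82 (SD 0.76), and 1.29% of measured genes were at or below it. All 12 of the brighter probesets were lower, with a median of -1.07, and of the 12 dimmer ones 10 were lower, with a median of -0.68. The brightest probeset read 7.29 in the inhibitor array and 8.11 in the DMSO array. Pdgfrb passed the 2-fold rule with a brightness limit at the 75th percentile of the table (-1.01 over 18 probesets), with the brighter probesets alone, with the odd-ranked probesets alone (-1.02) and with the gap between median levels (-1.04), and it missed the rule with the even-ranked probesets alone (-0.63). The gap between median levels is a looser rule, which 142 of 15087 genes passed downward, against 85 with the median of probeset differences. At a 1.5-fold threshold Pdgfrb was the only member past the rule, which 2.66% of measured genes passed downward and 5.85% upward.

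Pdgfra, the alpha receptor gene, lay near the median of the table, 3.17, in both arrays. Of its 26 probesets 17 were bright, and 9 of those were bright in both arrays. These 17 ran from 1.88 to 4.91 with a median of 3.35 in the inhibitor array, against 1.85 to 5.44 with a median of 4.02 in the DMSO array. The difference was -0.57 (SD 0.86), with 11 of 17 probesets lower. A probeset bright in the DMSO array alone is lower with the inhibitor by the filter itself, so that count was partly fixed in advance. Probesets bright in both arrays lay on both sides of 0, from -1.06 to 0.52. Over all 26 probesets the gene difference was -0.32, with 16 lower, and it was -0.21 when every value under 3.17 was set to 3.17. The 8 brighter probesets were split, with 4 lower and 4 higher.

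The PDGF ligand genes and the proteins that relay the signal showed no member past the size rule. Among the ligands, Pdgfa differed by 0.27, Pdgfb, the main endothelial ligand, by 0.30, and Pdgfc by -0.14. The sign of each turned in 1 of 16 other settings, and Pdgfb passed the rule in 1 of them (1.07). Of 15 measured cytoplasmic partners of the receptors 10 were above 0 and 5 below, with a median of 0.10. The members furthest from 0 were the transcription factor gene Stat3 (0.50), the adaptor gene Crk (0.49) and Shc1, another adaptor (0.40). Of the 7 other receptors of the same structural class and their ligands, Kit, the stem cell factor receptor gene, differed by -0.66 with 20 of 22 probesets lower, Flt3l by 0.48 and Csf1 by -0.38, with a median of 0.05 over the list.

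Of 32 measured genes that also belong to the smooth muscle apparatus or its cytoskeleton, 1 passed the size rule, downward, and the median was -0.08, with 13 above 0 and 19 below. The lower gene was Gucy1a1, a subunit of the soluble guanylate cyclase that relaxes smooth muscle in response to nitric oxide. Its levels were 5.69 in the inhibitor array and 7.22 in the DMSO array and its difference was -1.39 (SD 0.75, 9 of 10 probesets lower), and it passed the rule in each of 16 other settings. Prkg1, the cyclic GMP-dependent kinase that acts downstream of that enzyme, had levels of 3.92 in the inhibitor array and 5.30 in the DMSO array and a difference of -0.87 with 18 of 20 probesets lower. It was short of the rule here and past it in 3 of 16 other settings, down to -1.38. The intermediate filament gene Des, which encodes desmin, differed by 0.67 with 10 of 11 probesets higher.

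Of the relatives of the 8 contractile genes that serve non-muscle cells, none of 12 measured passed the rule. Of these, 9 were above 0 and 3 below, and the median was 0.05. Beta actin (Actb) differed by 0.06, gamma actin (Actg1) by 0.03, Tagln2 by 0.02, Tpm3 by 0.04, Tpm4 by 0.14 and the myosin heavy chain gene Myh9 by -0.01, and the signs of Actg1, Tagln2, Tpm3 and Myh9 turned in 1 or 2 of the other settings. The members furthest from 0 were the non-muscle myosin gene Myh10 at -0.52 with 36 of 41 probesets lower, the calponin 3 gene Cnn3 at 0.42 with 14 of 14 higher, and Myl12b. Of 6 measured relatives in striated muscle none passed the rule, with Myl7 at 0.38, Myh6 at 0.23 and Myl4 at 0.22.

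The regulators upstream of the contractile genes lay on both sides of 0. Srf differed by 0.27 with 6 of 8 probesets higher. Among its cofactors, Myocd, which encodes myocardin, differed by 0.14, Mrtfa by -0.12 and Mrtfb by 0.07, and each of these 3 turned sign in at least 1 other setting. Hey2 was higher past the size rule, at 5.60 in the inhibitor array and 3.60 in the DMSO array (difference 2.32, 10 of 10 probesets). Hey2 is a Notch target and a repressor known to act on smooth muscle genes, and it is also a gene of arterial endothelium. The ETS factor gene Elk3 and the forkhead gene Foxo4 both differed by 0.90 with 11 of 11 probesets higher. None of 12 genes of the TGF-beta pathway, which induces contractile genes, passed the rule, with the receptor genes Tgfbr2 at 0.99 (past the rule in 3 of 16 other settings, up to 1.18) and Eng at 0.70, Smad2 at 0.42 and a list median of 0.19.

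The promoters of 3 contractile genes are shown here, those of Acta2 and Tpm1, which were lower with the inhibitor, and of Myl9, which was higher. All 3 hold matches to the CArG box, whereas the window of Cnn1, which differed by 0.30, holds none and is not shown. Each promoter shown is the stretch of 250 bases upstream of a RefSeq transcript start in GRCm38.p6, read 5′ to 3′ on the gene's strand. Capitals mark a match to the CArG box, either exact or with 1 letter off. The Acta2 window is chr19:34255374-34255623 on the minus strand, the Tpm1 window chr9:67049214-67049463 on the minus strand and the Myl9 window chr2:156775214-156775463 on the plus strand.
Acta2: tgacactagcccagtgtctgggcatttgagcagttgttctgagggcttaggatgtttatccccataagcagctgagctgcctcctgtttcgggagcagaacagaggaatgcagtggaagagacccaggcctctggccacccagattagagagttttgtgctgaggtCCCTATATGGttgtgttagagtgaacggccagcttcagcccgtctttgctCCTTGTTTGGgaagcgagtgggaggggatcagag
Tpm1: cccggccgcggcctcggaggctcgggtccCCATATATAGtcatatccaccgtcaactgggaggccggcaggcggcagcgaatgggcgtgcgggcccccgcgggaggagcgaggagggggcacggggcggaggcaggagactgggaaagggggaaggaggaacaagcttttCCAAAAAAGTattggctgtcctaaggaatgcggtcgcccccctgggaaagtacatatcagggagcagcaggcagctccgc
Myl9: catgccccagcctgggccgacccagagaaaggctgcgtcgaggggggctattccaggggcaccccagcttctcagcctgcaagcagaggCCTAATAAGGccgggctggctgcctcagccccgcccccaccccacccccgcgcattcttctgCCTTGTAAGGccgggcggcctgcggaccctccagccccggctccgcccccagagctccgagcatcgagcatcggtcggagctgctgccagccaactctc

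An exact CArG box was found in Myl9 alone of the 7 genes with a window, CCTAATAAGG, and 1.47% of 32851 mouse windows of this length hold one. These 32851 windows leave out chr18, as did the search of the members. Tagln, Myh11 and Pdgfrb had no window among them, so nothing can be said of their promoters here. Matches with 1 letter off were CCTTGTAAGG in Myl9, CCCTATATGG and CCTTGTTTGG in Acta2, CCATATATAG and CCAAAAAAGT in Tpm1, and GCTTTTTAGG in 1 of the 2 Cald1 windows. At least 1 exact or near match was present in 18.6% of all windows and at least 2 in 2.96%. The windows of Tpm2, Cnn1 and Pdgfra held no such match. The core of the MCAT element, CATTCC or GGAATG on the printed strand, to which TEAD factors bind, was found in Acta2, Tpm1 and the same Cald1 window, and in 12.6% of all windows. Of the genes with a near or exact match, Acta2 and Tpm1 were lower with the inhibitor, Myl9 was higher and Cald1 was near 0. These matches are letters in a window and no measured binding.

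Markers of the cell types that the sort could hold were read beside the 10 genes. The labels call the cells hemogenic endothelium, and the arrays had Cdh5, which encodes VE-cadherin, at 9.84 in the inhibitor array and 7.89 in the DMSO array, Runx1 at 8.60 in the inhibitor array and 8.44 in the DMSO array, and Itga2b, the gene of CD41, at 5.996 in the inhibitor array and 6.19 in the DMSO array. Of 13 measured endothelial markers 7 were higher past the rule (Sox7, Cdh5, Esam, Egfl7, Erg, Sox18 and Flt1) and all 13 were above 0, with a median of 1.22. Sox18 lost the call in 2 of 12 other settings, down to 0.14, and Erg in 2 of 16, down to 0.85, while Tie1 gained it in 3, Tek in 2, and Emcn and Pecam1 in 1 each. Of 10 erythroid markers 8 were lower (Hba-x, Hbb-y, Epor, Klf1, Slc4a1, Epb42, Sptb and Hemgn), with a median of -1.28, and Klf1 and Slc4a1 lost the call in 1 of 12 and 2 of 16 other settings. Of 12 markers of megakaryocytes and platelets, cells that also use Myl9 and tropomyosins, 3 were lower (Pf4, P2rx1 and Thbs1), with a median of -0.39. Some probesets of Pf4 were bright in the DMSO array alone and so had to be lower. Pf4 read 2.70 in the inhibitor array, below the table's median, and 5.31 in the DMSO array. It lost the call in 1 of 10 other settings (-0.77). None of 10 cardiomyocyte markers (median 0.18, with Tnni1 at -0.40 and Tnnt2 at 0.40) or 10 pan-haematopoietic markers (median 0.14, with Lcp1 at 0.83 and Laptm5 at 0.73) passed the rule, which Lcp1 reached in 1 other setting (1.04). Of these pan-haematopoietic markers 7 were above 0 and 3 below. Kit at -0.66 and Cd34 at -0.53 were among the lower ones, with 20 of 22 and 10 of 12 probesets lower.

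Pericyte and fibroblast markers, which share their cells with Pdgfrb and Pdgfra, lay on both sides of 0. None of 10 measured pericyte markers passed the rule, 5 were above 0 and 5 below, and the median was 0.05. Their levels ran from 3.64 to 6.26 in the inhibitor array, against 3.53 to 5.30 in the DMSO array. Anpep, an aminopeptidase gene also expressed in myeloid cells, differed by 0.83 and passed the rule in 2 of 16 other settings, up to 1.31. Ebf1 differed by 0.46 and Notch3 by 0.41, while Rgs5, a marker of pericytes, differed by -0.08 at levels of 3.64 in the inhibitor array and 3.96 in the DMSO array. Cspg4 was the pericyte marker furthest below 0, at -0.33 with 10 of 13 probesets lower. Of 14 fibroblast markers, 1 was higher and 2 were lower past the rule, with a median of -0.09. The higher one was the gelatinase gene Mmp2, which differed by 1.44 (levels 7.39 in the inhibitor array and 5.77 in the DMSO array, 13 of 13 probesets higher). The lower ones were the matrix gene Postn at -1.32 (6.41 in the inhibitor array and 7.65 in the DMSO array, 23 of 23 lower) and the proteoglycan gene Dcn at -1.40 (2.89 in the inhibitor array and 3.85 in the DMSO array, 7 of 8 lower). Dcn, whose inhibitor level was below the table's median, lost the call in 3 of 15 other settings, at -0.65 nearest to 0, and Mmp2 lost it in 1 of 16 (0.94). Some Dcn probesets were bright in the DMSO array alone and so had to be lower. The collagen genes Col1a1 and Col1a2 differed by -0.13 and -0.07. The part of these cells in the differences of Acta2 and Pdgfrb was not tested.

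**Figure D4:**
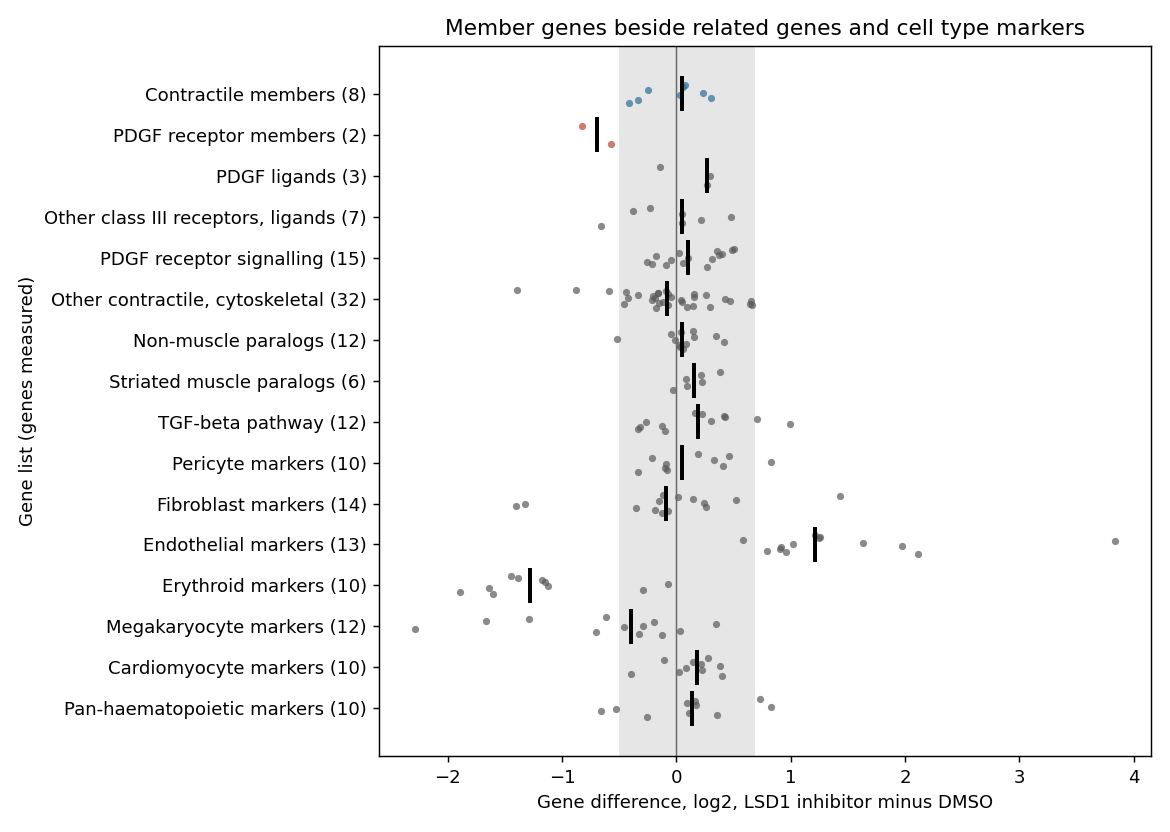
Log2 difference of each measured gene, inhibitor minus DMSO (horizontal axis), by gene list with the number of genes measured (vertical axis), with the list median as a black bar and the central 90% of all measured genes in grey. The contractile genes centre at 0.05 and the PDGF receptors lie at -0.82 and -0.57, beside endothelial markers with a median of 1.22 and erythroid markers with a median of -1.28.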

How the data were processed

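Per the labels' protocols, column-purified total RNA was amplified and biotin-labelled for 2 Affymetrix arrays. The deposited values, 1 for each probeset in each array, were read as log2 intensity from their range of 0.157 to 13.5. No source used here gives the log base, summarisation, normalization or genome build. Ranked by size, values of equal rank lie within 0.085 of each other between the arrays. The table has 1048575 probesets, 1048576 lines with its header, which is a spreadsheet's row limit, so probesets may be missing. It gives no detection calls. A platform annotation names 275842 probesets, 5737 of them with several symbols and not used. Of 22133 symbols, 4167 older ones were updated through the RefSeq table of GRCm38.p6.

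Values were used without further scaling. A gene needed at least 4 bright probesets, as 15087 genes and all 10 members had. The members, with 155 of 182 probesets bright, keep their probesets by the higher of the 2 values. Groups came from sample titles. The named genes were the members, a few preset genes, and from each list the genes past the size rule and the 3 furthest from 0. A few more are named beside these. Summary values of the list of SRF regulators are not reported here. Members and lists were chosen with earlier results of these data known. The summary step was checked on simulated data, with shifts of 2 in log2 put on genes with at least 8 bright probesets. These shifts were larger than any member gene's difference and the noise was the same at every level. The check therefore does not cover differences of the size seen here. Python 3.11.15, pandas 2.3.3 and statsmodels 0.14.6 were used.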

Additional observations from a re-analysis of the deposited data

How the results depend on the processing

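The count of members past the size rule was 0, and it became 1, always Pdgfrb, under 5 settings, which were a 1.5-fold threshold, a brightness limit at the 75th percentile, the brighter probesets of each gene, the odd-ranked probesets, and the gap between the median levels. Under the other alternatives, which covered centred, quantile-normalized and trend-corrected arrays, other filters and summaries, probesets with several genes, and the median gene set to 0 (added after seeing the data), it stayed at 0. Over all measured genes, 85 of 15087 passed downward in the main setting and 402 of 15087 at 1.5-fold. The count was 69 of 10963 at the 75th percentile and 49 of 10350 with the brighter probesets. With the odd-ranked probesets 79 of 11427 passed downward, and with the gap between the median levels 142 of 15087. Acta2, Cnn1, Myl9, Tpm1, Pdgfra and Pdgfrb kept their sign in every alternative that measured them. Tpm1 came as near to 0 as -0.005, with the gap between the median levels. For Pdgfra, no alternative kept only the probesets bright in both arrays. Myh11 changed sign in 4 alternatives, and Cald1, Tpm2 and Tagln in 1 each. No scaling moved the median of all genes by over 0.1. No paired analysis was possible because each condition has 1 array. Pdgfra, with 9 of its 17 bright probesets bright in both arrays, ran from -0.70 to -0.21 over the alternatives, so its size rests on dim values. Its direction rests on them too, since its probesets bright in both arrays lay on both sides of 0.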
